A study of Mus musculus with 6 samples.

Results

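The 9 genes described here are Igf1, the receptors Igf1r and Igf2r, and the binding proteins Igfbp2, Igfbp3, Igfbp4, Igfbp5, Igfbp6 and Igfbp7. They were taken by symbol from a table of 25572 genes, and all 9 were found in it. RNA sequencing had measured transcript levels in hind limb muscle of 3 HDCKO mice, which lack histidine decarboxylase (Hdc-/-), the enzyme that makes histamine, and of 3 WT mice. All 6 animals had undergone hind limb ischaemia surgery (HLI) 3 days before, with 1 library per mouse. The question was how loss of Hdc changes the ischaemic muscle, and no uninjured muscle was used here. The strain, age and leg, the way the knockout was made and the cells in which Hdc was lost were not given in the sources used here.

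Insulin-like growth factors are small secreted relatives of insulin. IGF1 comes from the liver under growth hormone and is also made within injured muscle, by macrophages, fibroblasts and muscle cells, where it promotes growth of myoblasts and fibres. The tyrosine kinase receptor encoded by Igf1r passes its signal to PI3K and AKT, whereas the Igf2r product clears IGF2 and sorts lysosomal enzymes that carry mannose 6-phosphate. IGF binding proteins hold most of the secreted factor in the extracellular space, and proteases release it from them.

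In HDCKO muscle the ligand transcript did not pass the test and the signalling receptor was lower. The binding proteins parted ways: Igfbp3, Igfbp4 and Igfbp7 were lower and Igfbp5 was higher. Of these calls, those of Igf1r and Igfbp3 held under all 15 alternatives tried, and those of Igfbp4, Igfbp5 and Igfbp7 were lost under some. Of the 9 genes, 8 reached a mean of 0.5 FPKM (fragments scaled by gene length and library depth) and were tested with limma on log2(FPKM + 0.5). Of these 8, 4 fell and 1 rose at an adjusted p under 0.05. Among all 13288 genes tested, 42.6% fell and 17.8% rose, 60.4% together, so a fall was the common outcome in these samples. HDCKO and WT did not overlap for the same 5 genes, 4 of them lower and 1 higher in HDCKO, beside 51.4% and 21.2% of all genes, and 5 had an unadjusted p under 0.05, beside 66.7% of all genes. Without HDCKO mouse 2, WT mouse 1 or WT mouse 3, 2 of these genes fell, while the share of all genes that fell dropped to 18.9%, 22.4% and 21.1% in that order. Without HDCKO mouse 3, 5 fell, beside 55.1% of all genes, and the 1 that rose no longer passed without any single mouse other than HDCKO mouse 2. The median log2 change of all genes was -0.50, and the change of each of the 8 tested genes is also given below relative to that median. Changes of all other genes named below are not set against it. With 3 mice a group, an exact permutation test of a single gene cannot go below p = 0.1.

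The libraries differed in more than these genes. An estimated 29500000 to 37600000 fragments lay behind each library, and the FPKM values of a library summed to 405521 to 454887. Hdc itself had 1.22, 2.46 and 2.52 FPKM in HDCKO mice 1, 2 and 3, against 7.49, 7.72 and 8.17 FPKM in WT mice 1, 2 and 3 (log2 change -1.74, limma adjusted p = 0.0033). Where the deletion lies in the gene was not stated. Correlations of log2 values across genes were 0.887 to 0.963 among HDCKO libraries, 0.975 to 0.986 among WT libraries and 0.609 to 0.826 between the groups. The 20 mature fibre markers, all above 0 in every library, summed to 58446 to 108596 FPKM in HDCKO and to 504 to 1885 FPKM in WT, so the label of skeletal muscle was met only weakly in WT by fibre transcripts. Sums of the other marker lists were 161 to 769 FPKM in HDCKO and 874 to 1460 FPKM in WT for macrophages (12 genes), and 32.8 to 75.8 FPKM in HDCKO and 2461 to 14473 FPKM in WT for neutrophils (8 genes). They were 2353 to 3127 FPKM in HDCKO and 3180 to 6022 FPKM in WT for fibroblasts (10 genes), and 203 to 294 FPKM in HDCKO and 393 to 592 FPKM in WT for endothelial cells (10 genes). Mural cell markers (8 genes) summed to 319 to 379 FPKM in HDCKO and 207 to 287 FPKM in WT, and markers of satellite cells and regenerating muscle (8 genes) to 33.2 to 160 FPKM in HDCKO and 6.44 to 29.2 FPKM in WT. Adipocyte markers (5 genes) overlapped, with 561 to 2308 FPKM in HDCKO and 1109 to 2387 FPKM in WT. By limma, all 20 fibre markers rose, all 8 neutrophil markers fell, 6 of 12 macrophage markers and 5 of 10 endothelial markers fell, 3 fibroblast markers fell and 1 rose, 2 mural markers rose and 1 fell, 2 regenerating muscle markers rose and no adipocyte marker was called, nor had one an unadjusted p under 0.05. Among all genes tested, 17.8% rose and 42.6% fell. Mymx and Myh3, markers of regenerating muscle, were listed at 0 in WT mouse 2. The part of these cell types in the results below was not tested, and in bulk muscle fewer cells of a type and less RNA per cell cannot be told apart. HDCKO mouse 3 held the least fibre and the most macrophage and regenerating muscle signal of its group.

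**Figure D1:**
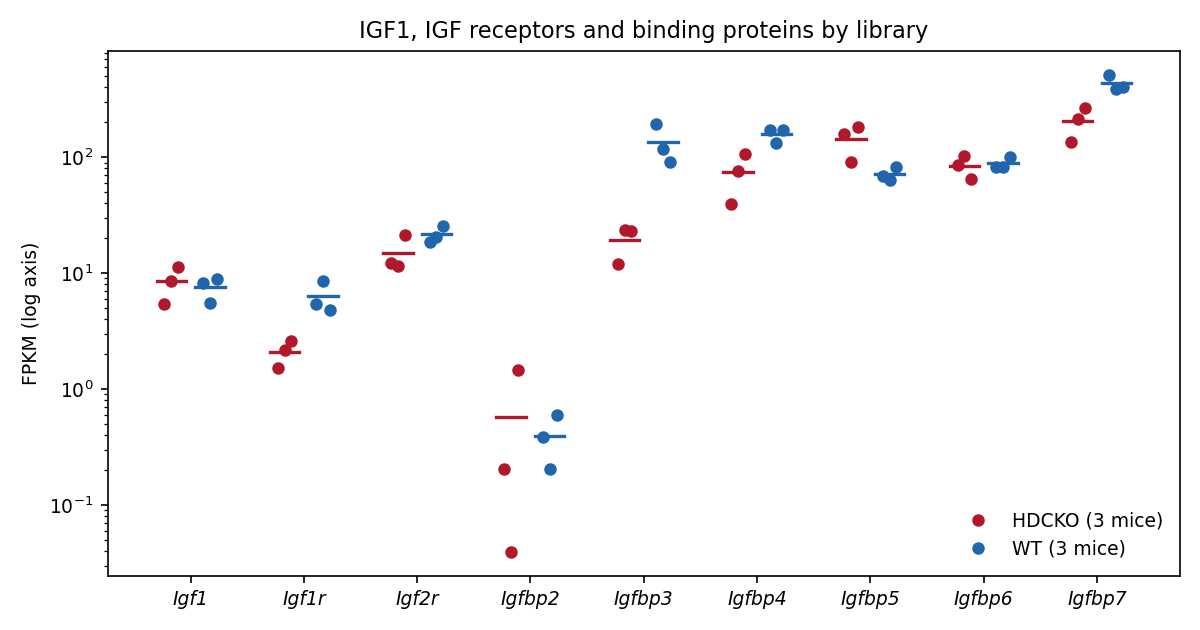
FPKM of each gene (log axis) in HDCKO (red, left) and WT (blue, right); each point is 1 mouse and each bar the mean of 3. The groups do not overlap for Igf1r, Igfbp3, Igfbp4, Igfbp5 and Igfbp7, and Igfbp2 is the only one with values under 1 FPKM.

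Igf1 (ENSMUSG00000020053, chromosome 10, 87693642 to 87772904, plus strand, GRCm39) encodes the ligand. It had 5.44, 8.59 and 11.4 FPKM in HDCKO mice 1, 2 and 3, against 8.22, 5.53 and 8.90 FPKM in WT mice 1, 2 and 3. The groups overlapped fully, since HDCKO held both the lowest and the highest value. The means were 8.47 ± 2.97 FPKM in HDCKO and 7.55 ± 1.78 FPKM in WT (SD, n = 3 each). Igf1 did not pass the test (log2 change 0.12, SE 0.31, 95% interval -0.62 to 0.87, limma adjusted p = 0.734). Relative to the median gene its log2 change was 0.62, and with median-of-ratios scaling, which sets the typical gene to no change, it was 0.64 and passed narrowly (adjusted p = 0.0469; 0.0469 to 0.865 over 15 alternatives). HDCKO mouse 1 and WT mouse 2, which had the lowest Igf1 of their groups, also had the lowest sums of macrophage, fibroblast and regenerating muscle markers of their groups. The part of these cells in the level of Igf1 was not tested.

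Igf1r (ENSMUSG00000005533, chromosome 7, 67601518 to 67883416, plus strand, GRCm39) encodes the receptor through which IGF1 signals. It had 1.52, 2.18 and 2.61 FPKM in HDCKO mice 1, 2 and 3, against 5.46, 8.59 and 4.80 FPKM in WT mice 1, 2 and 3. Every HDCKO value lay below every WT value. The HDCKO mean was 33.5% of the WT mean (2.10 ± 0.553 FPKM in HDCKO and 6.28 ± 2.02 FPKM in WT, SD, n = 3 each). The fall passed the test (log2 change -1.36, SE 0.27, limma adjusted p = 0.0089; -0.87 relative to the median gene). It passed under all 15 alternatives tried, with adjusted p up to 0.0360.

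The insulin receptor Insr, which can pair with the Igf1r product in hybrid receptors, did not pass the test. Insr had 9.47 ± 1.50 FPKM in HDCKO and 9.46 ± 1.97 FPKM in WT (SD, n = 3 each; log2 change 0.01, 95% interval -0.48 to 0.50, limma adjusted p = 0.970). Igf1r made up, of the summed FPKM of Igf1r and Insr, 13.6%, 16.7% and 24.9% in HDCKO mice 1, 2 and 3, against 39.0%, 42.3% and 37.2% in WT mice 1, 2 and 3. A share within a library does not depend on how libraries are scaled against each other. HDCKO averaged 18.4% ± 5.85 and WT 39.5% ± 2.59 (SD, n = 3 each), given as a description.

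Igf2r (ENSMUSG00000023830, chromosome 17, 12901293 to 12988614, minus strand, GRCm39) encodes the cation-independent mannose 6-phosphate receptor. It had 12.2, 11.4 and 21.5 FPKM in HDCKO mice 1, 2 and 3, against 18.7, 20.6 and 25.5 FPKM in WT mice 1, 2 and 3. HDCKO mouse 3 lay inside the WT range and the other HDCKO libraries below it. Igf2r did not pass (log2 change -0.55, SE 0.27, 95% interval -1.21 to 0.11, limma adjusted p = 0.120), and its change was -0.06 relative to the median gene. It passed without HDCKO mouse 3 (log2 change -0.83, adjusted p = 0.0063), where 55.1% of all genes fell. It also passed with sample weights (-0.85, adjusted p = 1.9e-04), where 62% of all genes fell and the weights did not fully converge. The other alternatives gave adjusted p up to 0.958. The noncoding RNA Airn overlaps Igf2r on the opposite strand and had 1.27 ± 0.477 FPKM in HDCKO and 1.29 ± 0.599 FPKM in WT (SD, n = 3 each). Whether strand was used in counting was not given in the sources used here.

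Igfbp3 (ENSMUSG00000020427, chromosome 11, 7156086 to 7164179, minus strand, GRCm39) changed most of the 8 genes tested. Its product carries most of the circulating IGF, in a complex with the acid-labile subunit. Igfbp3 had 11.9, 23.5 and 23.0 FPKM in HDCKO mice 1, 2 and 3, against 195, 119 and 91.3 FPKM in WT mice 1, 2 and 3. The groups lay far apart, with the highest HDCKO value well under the lowest WT value. The HDCKO mean was 14.4% of the WT mean (19.5 ± 6.53 FPKM in HDCKO and 135 ± 53.6 FPKM in WT, SD, n = 3 each). The log2 change was -2.75 (SE 0.38, limma adjusted p = 0.0029), or -2.26 relative to the median gene, and it passed under all 15 alternatives, with adjusted p up to 0.0147 and a smallest change of -2.20.

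Igfbp5 (ENSMUSG00000026185, chromosome 1, 72897091 to 72914043, minus strand, GRCm39) moved the other way. Its product is a matrix-bound binding protein made by differentiating muscle cells and by stromal cells. Igfbp5 had 158, 90.3 and 184 FPKM in HDCKO mice 1, 2 and 3, against 69.4, 63.7 and 81.8 FPKM in WT mice 1, 2 and 3. The HDCKO libraries all lay above the WT libraries, with HDCKO mouse 2 closest to them. The means were 144 ± 48.1 FPKM in HDCKO and 71.6 ± 9.29 FPKM in WT (SD, n = 3 each). The rise passed on the deposited values (log2 change 0.95, SE 0.29, limma adjusted p = 0.0320), and it was 1.44 relative to the median gene. The call was lost without filtering (adjusted p = 0.0571), without any single WT mouse (0.0656 to 0.0969), and without HDCKO mouse 1 (0.0747) or HDCKO mouse 3 (0.0511). It was firmer with median-of-ratios scaling (log2 change 1.50, adjusted p = 0.0090), over a range of 0.33 to 1.50 in 15 alternatives.

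Igfbp3 and Igfbp5 moved furthest in opposite directions, so the sequences before their start sites are shown, as the 250 bases upstream in RefSeq on GRCm38.p6, 5′ to 3′ along the gene. The Igfbp3 window is chr11:7213924-7214173 and the Igfbp5 window is chr1:72874866-72875115, both on the minus strand. Capitals mark CANNTG, the E-box, a motif read by myogenic and other basic helix-loop-helix factors and the same on both strands.
Igfbp3: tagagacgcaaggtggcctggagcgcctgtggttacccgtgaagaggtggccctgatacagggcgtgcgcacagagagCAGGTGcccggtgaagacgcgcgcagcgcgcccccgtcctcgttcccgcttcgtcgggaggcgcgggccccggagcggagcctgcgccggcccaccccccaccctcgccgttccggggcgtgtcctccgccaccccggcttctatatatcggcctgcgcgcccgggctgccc
Igfbp5: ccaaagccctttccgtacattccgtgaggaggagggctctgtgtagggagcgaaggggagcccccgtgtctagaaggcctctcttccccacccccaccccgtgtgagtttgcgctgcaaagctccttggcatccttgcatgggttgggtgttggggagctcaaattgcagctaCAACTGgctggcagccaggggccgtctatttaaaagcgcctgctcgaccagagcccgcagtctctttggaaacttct
Each window held 1 E-box, starting 172 bases before the start site in Igfbp3 and 77 bases before it in Igfbp5. Of 32851 promoters in the same table, 66.2% held at least 1 in a window of this length. GGGCGG, the GC box, searched on both strands, was in neither window and in 32.7% of all promoters. The 2 windows differed in base composition, with 73.2% G and C in Igfbp3 and 58.8% in Igfbp5. A match is a description of the letters and says nothing of a factor's binding in these mice.

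Igfbp4 (ENSMUSG00000017493, chromosome 11, 98932064 to 98945218, plus strand, GRCm39) encodes a soluble binding protein that is a substrate of the protease PAPP-A. It had 39.7, 76.6 and 107 FPKM in HDCKO mice 1, 2 and 3, against 172, 132 and 171 FPKM in WT mice 1, 2 and 3. HDCKO mouse 3 came near the lowest WT value, and the groups did not overlap. The means were 74.3 ± 33.5 FPKM in HDCKO and 158 ± 22.8 FPKM in WT (SD, n = 3 each). The fall passed (log2 change -1.19, SE 0.37, limma adjusted p = 0.0331), or -0.69 relative to the median gene. It did not pass with median-of-ratios scaling (log2 change -0.63, adjusted p = 0.0740), with fibre and mitochondrial genes excluded from the scaling (-0.74, adjusted p = 0.0959) or with no filter (adjusted p = 0.0613). It was also lost without HDCKO mouse 2 (adjusted p = 0.0796) or any single WT mouse (0.0644 to 0.0966).

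Igfbp7 (ENSMUSG00000036256, chromosome 5, 77493130 to 77555931, minus strand, GRCm39) encodes a secreted protein of vessel walls that binds IGFs weakly. It had 137, 214 and 267 FPKM in HDCKO mice 1, 2 and 3, against 516, 384 and 407 FPKM in WT mice 1, 2 and 3. The groups were clearly separate. The HDCKO mean was 47.2% of the WT mean (206 ± 65.4 FPKM in HDCKO and 436 ± 70.5 FPKM in WT, SD, n = 3 each). The fall passed (log2 change -1.12, SE 0.29, limma adjusted p = 0.0193), or -0.63 relative to the median gene. It did not pass with median-of-ratios scaling (log2 change -0.57, adjusted p = 0.0517), with fibre and mitochondrial genes excluded from the scaling (-0.67, adjusted p = 0.0594), or without HDCKO mouse 2 (0.0607), WT mouse 1 (0.0670) or WT mouse 3 (0.0567). Of the 10 endothelial markers 5 fell, beside 42.6% of all genes. Their median log2 change was -0.57, against -0.50 for all genes, from -2.10 for Emcn to -0.05 for Tek. Of the 8 mural markers 2 rose and 1 fell, with a median log2 change of 0.11. The part of these cells in the fall of Igfbp7 was not tested.

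Igfbp6 (ENSMUSG00000023046, chromosome 15, 102052697 to 102057953, plus strand, GRCm39) encodes a binding protein that prefers IGF2. It had 85.5, 103 and 65.2 FPKM in HDCKO mice 1, 2 and 3, against 82.6, 82.3 and 101 FPKM in WT mice 1, 2 and 3. The HDCKO libraries spread over and beyond the WT range. The log2 change was -0.09 (SE 0.21, 95% interval -0.60 to 0.43, limma adjusted p = 0.733), or 0.41 relative to the median gene, and its sign turned under 6 of the 15 alternatives. One of these passed, with sample weights that did not fully converge (log2 change 0.22, adjusted p = 0.0401). Over the 15 alternatives adjusted p went up to 0.973.

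Igfbp2 (ENSMUSG00000039323, chromosome 1, 72863606 to 72891634, plus strand, GRCm39), which encodes a binding protein prominent in the fetus and in plasma, had the lowest mean of the 9 genes in both groups. It had 0.203, 0.0394 and 1.47 FPKM in HDCKO mice 1, 2 and 3, against 0.382, 0.204 and 0.595 FPKM in WT mice 1, 2 and 3. HDCKO mouse 3 stood above all the others, and the other HDCKO values lay below the WT range, that of HDCKO mouse 1 only just. Its mean over all libraries was 0.482 FPKM, under the minimum for testing, and an exact two-sided permutation test of its log2 values gave p = 1. HDCKO mouse 3 was also the library with the highest Mymk, the membrane activator of myoblast fusion, at 18.2 FPKM, against 0.0389 and 0.318 FPKM in HDCKO mice 1 and 2. Igfbp2 and Igfbp5 lie end to end on chromosome 1 with 5456 bases and no annotated gene between them. Igfbp3 has a similar neighbour, Igfbp1, 3539 bases away. Igfbp1 was listed at 0 in all HDCKO libraries and had 0.0618, 0.213 and 0.0532 FPKM in WT mice 1, 2 and 3.

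FPKM values are per length, so levels can be set in order within a group. In HDCKO, mean FPKM ran from Igfbp7 (206) through Igfbp5 (144), Igfbp6 (84.5) and Igfbp4 (74.3), with each gene's range overlapping that of the next. Below them came Igfbp3 (19.5) and Igf2r (15.0), which overlapped, then Igf1 (8.47), Igf1r (2.10) and Igfbp2 (0.570), which did not. In WT, Igfbp7 (436) stood clear of Igfbp4 (158) and Igfbp3 (135), whose ranges overlapped each other, and Igfbp3 overlapped Igfbp6 (88.6). Igfbp5 (71.6) and Igf2r (21.6) followed without overlap, then Igf1 (7.55) and Igf1r (6.28), which overlapped, and Igfbp2 (0.394). Igfbp5 was thus above Igfbp6 and Igfbp4 in HDCKO and below both in WT, and Igfbp3 ranked below Igfbp6 in HDCKO and above it in WT by mean.

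**Figure D2:**
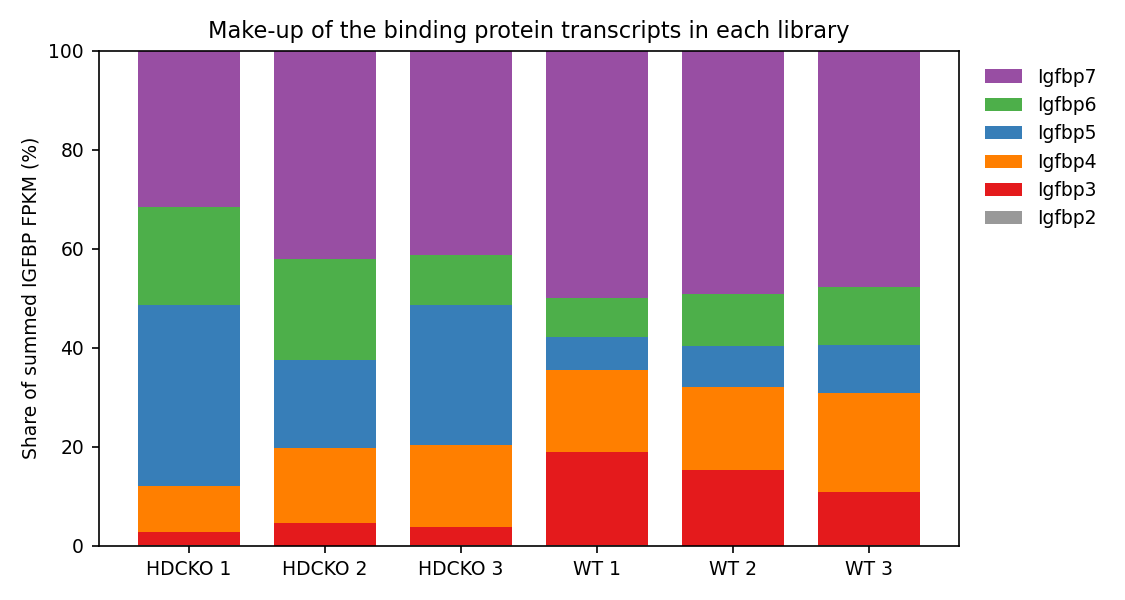
Share of each binding protein (percent) in the summed FPKM of Igfbp2 to Igfbp7, 1 bar per library, HDCKO on the left and WT on the right. Igfbp5 (blue) fills 17.8% to 36.5% of the HDCKO bars and 6.70% to 9.59% of the WT bars, while Igfbp3 (red) fills 2.77% to 4.63% in HDCKO and 10.7% to 18.8% in WT; Igfbp2 is too small to see.

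The make-up of the binding protein transcripts therefore differed, as a description that needs no scaling between libraries. The 6 binding proteins summed to 432, 507 and 647 FPKM in HDCKO mice 1, 2 and 3, against 1035, 782 and 853 FPKM in WT mice 1, 2 and 3. These sums, unlike the shares, do depend on how libraries are scaled against each other. Igfbp5 held 27.6% ± 9.38 of the HDCKO sum and 8.15% ± 1.44 of the WT sum, and Igfbp3 held 3.65% ± 0.938 of the HDCKO sum and 14.9% ± 4.07 of the WT sum (SD, n = 3 each). Igfbp7 was the leading transcript by mean share in both groups, with 38.3% ± 5.83 in HDCKO and 48.9% ± 1.10 in WT, though Igfbp5 exceeded it in HDCKO mouse 1. Igfbp4 held 13.6% ± 3.87 of the HDCKO sum and 17.9% ± 1.94 of the WT sum, and Igfbp6 held 16.7% ± 5.76 of the HDCKO sum and 10.1% ± 1.96 of the WT sum (SD, n = 3 each). Igfbp4 shares lay close together without overlap, and Igfbp6 shares overlapped. Set against that sum, Igf1 amounted to 1.26%, 1.69% and 1.76% in HDCKO mice 1, 2 and 3 and to 0.794%, 0.708% and 1.04% in WT mice 1, 2 and 3. Every HDCKO library therefore held more ligand transcript per binding protein transcript than every WT library.

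**Figure D3:**
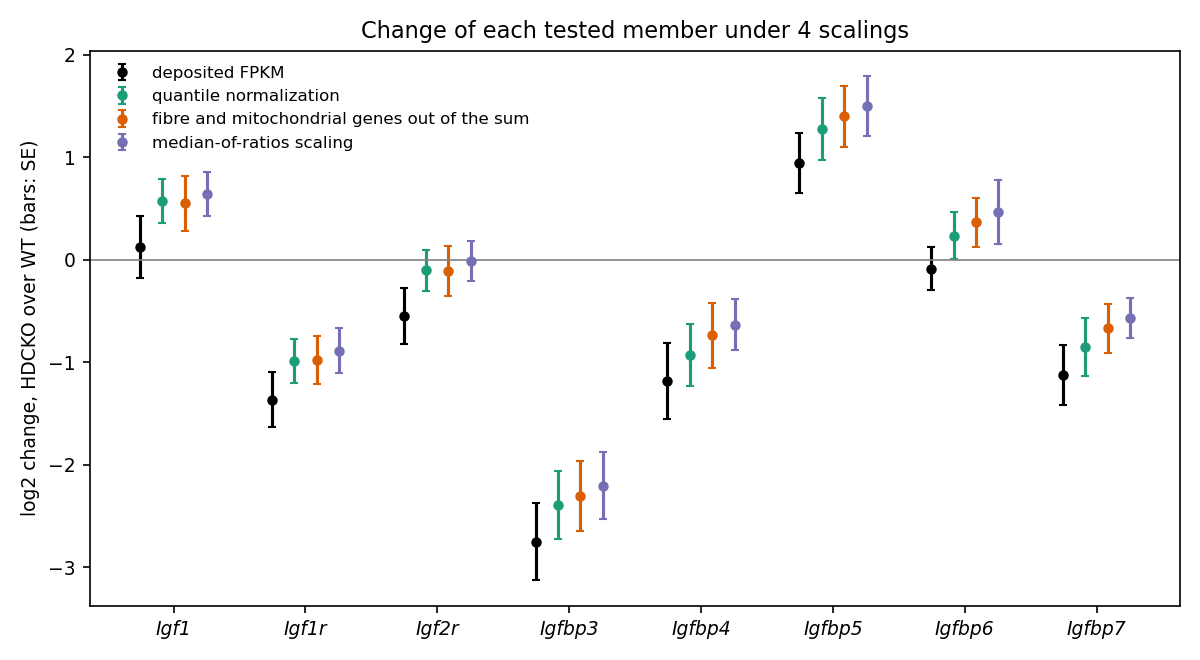
Log2 change (HDCKO over WT, bars are SE) of the 8 tested genes on the deposited FPKM and under 3 other scalings. All genes sit higher under the other scalings: Igfbp3 stays between -2.75 and -2.20, Igf1r between -1.36 and -0.89 and Igfbp5 between 0.95 and 1.50, while Igfbp6 crosses 0 and Igf2r comes close to it.

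Scaling moved all 8 genes the same way, as the plot of changes under each scaling shows. The median log2 change of all genes was -0.50 on the deposited values, -0.12 after quantile normalization, -0.09 with fibre and mitochondrial genes excluded from the scaling and 0.00 with median-of-ratios scaling. Genes higher in HDCKO made up 29.5%, 43.8%, 53.4% and 52.4% of the calls in that order. Mature fibre markers took 13.8% to 23.9% of the FPKM in HDCKO and 0.124% to 0.454% in WT, and mitochondrially encoded genes 11.9% to 18.4% in HDCKO and 3.49% to 3.99% in WT. Igf1r and Igfbp3 were called lower, and Igfbp5 higher, under all 4 scalings.

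Genes with the most similar profile over the 6 libraries were found by the root mean square distance between centred log2 values, among 12107 other genes. For Igfbp3 they were Rtn4rl2 (distance 0.184), Il33 (0.187) and Cyp7b1 (0.219). For Igf1r they were Lysmd3 (0.0611), Mcl1 (0.0652) and 9930012K11Rik (0.0656), for Igfbp4 Tgfbr2 (0.0695), Trim47 (0.0701) and Adcy3 (0.0829), and for Igfbp7 Eef1b2 (0.0610), Btd (0.0765) and Rpl39 (0.0794). Igfbp5 was nearest to Enox2 (0.127), Smad3 (0.139) and Col11a1 (0.146).

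The other genes of the pathway were read from 7 lists, of which 55 of 65 genes were tested. Of these, 9 rose and 26 fell, beside 17.8% and 42.6% of all genes tested, and their median log2 change was -0.46, against -0.50 for all genes. With median-of-ratios scaling 17 rose and 9 fell, beside 27.5% and 25% of all genes. Leaving out HDCKO mouse 1 gave 13 that fell, beside 33.3% of all genes, and HDCKO mouse 2 gave 10, beside 18.9%. Leaving out WT mice 1, 2 and 3 in turn gave 9, 10 and 11, beside 22.4%, 23.5% and 21.1% of all genes. Without HDCKO mouse 2 or WT mouse 2, 6 rose, beside 13.2% and 14.9% of all genes.

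**Figure D4:**
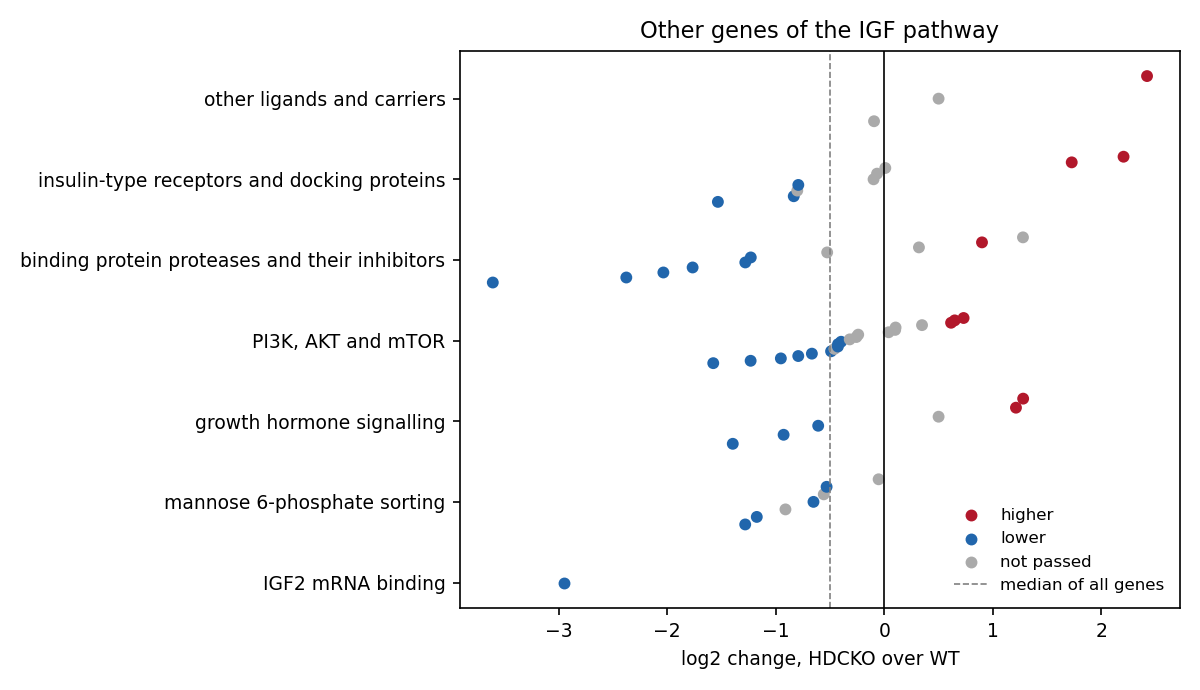
Log2 change (HDCKO over WT) of each tested gene of the 7 lists, 1 point per gene, red where it rose, blue where it fell and grey where it did not pass. The dashed line marks the median of all genes at -0.50; the lowest point is Adam12 at -3.61 and the highest Igf2 at 2.42.

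Among ligands and carriers, 1 of 3 tested genes rose and none fell by limma, beside 17.8% and 42.6% of all genes. The counts were the same at an unadjusted p under 0.05, beside 66.7% of all genes in either direction. The third gene tested, Ghr, stands in the growth hormone list as well. Igf2, the fetal growth factor that binds the same binding proteins, had 11.1, 10.1 and 15.8 FPKM in HDCKO mice 1, 2 and 3, against 3.02, 0.879 and 2.20 FPKM in WT mice 1, 2 and 3. All HDCKO values lay above all WT values (log2 change 2.42, SE 0.38, limma adjusted p = 0.0044), and the call held under all 15 alternatives. Igfals, the acid-labile subunit that joins the complex of Igfbp3, was low in both groups (0.670 ± 0.259 FPKM in HDCKO and 0.764 ± 0.358 FPKM in WT, SD, n = 3 each; adjusted p = 0.786).

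Of 10 tested proteases of binding proteins and inhibitors of those proteases, 6 fell and 1 rose, beside 42.6% and 17.8% of all genes. Pappa, the protease that cuts the Igfbp4 product, had 0.151, 0.147 and 0.236 FPKM in HDCKO mice 1, 2 and 3, against 4.77, 1.91 and 1.18 FPKM in WT mice 1, 2 and 3 (log2 change -2.03, damped by the pseudocount, limma adjusted p = 0.0096). Its inhibitors, the stanniocalcins, split. Stc1 had 1.78 ± 0.391 FPKM in HDCKO and 7.68 ± 3.73 FPKM in WT (SD, n = 3 each; log2 change -1.77, adjusted p = 0.0073). Stc2 had 4.54 ± 1.11 FPKM in HDCKO and 2.28 ± 0.980 FPKM in WT (SD, n = 3 each; log2 change 0.90, adjusted p = 0.0494), a call lost without HDCKO mouse 1, HDCKO mouse 2, WT mouse 2 or WT mouse 3 (adjusted p up to 0.118 over 15 alternatives). The metalloproteases Adamts1 (log2 change -2.38), Adam12 (-3.61) and Mmp2 (-1.28) and the lysosomal protease Ctsd (-1.23) also fell. The calls of Mmp2 and Ctsd did not pass with median-of-ratios scaling or without HDCKO mouse 1, HDCKO mouse 2, WT mouse 1 or WT mouse 3, nor that of Ctsd without WT mouse 2 (adjusted p up to 0.118 and 0.122 over 15 alternatives). Htra1, a serine protease that cuts the Igfbp5 product, had 31.5 ± 4.69 FPKM in HDCKO and 25.4 ± 5.86 FPKM in WT (SD, n = 3 each) and did not pass (adjusted p = 0.244), but rose with median-of-ratios scaling (log2 change 0.87, adjusted p = 0.0174).

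Downstream of the receptors, 2 of 9 tested receptors and docking proteins rose and 3 fell, beside 17.8% and 42.6% of all genes. Irs1, the docking protein that links IGF1 and insulin receptors to PI3K, had 10.5, 6.69 and 6.29 FPKM in HDCKO mice 1, 2 and 3, against 1.39, 0.856 and 1.64 FPKM in WT mice 1, 2 and 3. The groups were far apart (log2 change 2.20, SE 0.27, limma adjusted p = 0.0020). Its relative Irs2 did not pass (log2 change -0.07, adjusted p = 0.750). Grb14, an adaptor that inhibits the insulin receptor, rose (1.73), and the adaptors Shc1 (-1.53), Gab1 (-0.83) and Grb2 (-0.79) fell. With median-of-ratios scaling Gab1 and Grb2 did not pass, and the call of Grb2 was lost without any single mouse other than HDCKO mouse 3 (adjusted p up to 0.0952 and 0.194 over 15 alternatives).

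Of 20 genes of PI3K, AKT and mTOR, 3 rose and 9 fell, beside 17.8% and 42.6% of all genes. Those that fell numbered 2 with median-of-ratios scaling, beside 25% of all genes. They numbered 1 to 3 without HDCKO mouse 1, HDCKO mouse 2 or any single WT mouse, beside 18.9% to 33.3% of all genes. Akt2, the kinase isoform of insulin-responsive tissues, had 26.5 ± 1.09 FPKM in HDCKO and 15.8 ± 1.51 FPKM in WT (SD, n = 3 each; log2 change 0.73, limma adjusted p = 0.0071). Akt1, the widely expressed isoform, had 37.5 ± 15.8 FPKM in HDCKO and 107 ± 6.99 FPKM in WT (SD, n = 3 each; log2 change -1.58, adjusted p = 0.0078). Both calls held under all 15 alternatives, so the isoforms moved in opposite directions. Tsc1 (0.65) and Tsc2 (0.61), which restrain mTOR, rose, while Mtor itself had 7.21 ± 0.682 FPKM in HDCKO and 6.98 ± 0.209 FPKM in WT (SD, n = 3 each; adjusted p = 0.805) and rose only with the 3 other scalings (log2 change up to 0.56). Eif4ebp1, a repressor of translation that mTOR inactivates, fell (-1.23). Eif4ebp1 did not pass without any single WT mouse (adjusted p up to 0.0565), nor Tsc2 without HDCKO mouse 2, WT mouse 1 or WT mouse 2 (up to 0.0616).

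In growth hormone signalling, 2 of 6 genes rose and 3 fell, beside 17.8% and 42.6% of all genes. Stat5b, the factor that carries the growth hormone signal to Igf1, had 30.5 ± 5.15 FPKM in HDCKO and 12.8 ± 1.49 FPKM in WT (SD, n = 3 each; log2 change 1.21, limma adjusted p = 0.0036). The receptor Ghr had 43.4 ± 10.7 FPKM in HDCKO and 30.3 ± 5.93 FPKM in WT (SD, n = 3 each) and did not pass (log2 change 0.50, adjusted p = 0.104), but passed without HDCKO mouse 3 and with the 3 other scalings and sample weights (log2 change up to 1.05). Jak2, the kinase bound to that receptor (-1.40), Stat5a (-0.93) and the feedback inhibitor Socs2 (-0.61) fell, whereas Cish, another feedback inhibitor, rose (1.28). Stat5b and Jak2 passed under all 15 alternatives. Stat5a and Socs2 did not pass with median-of-ratios scaling or without HDCKO mouse 2, WT mouse 1 or WT mouse 2, Stat5a also without HDCKO mouse 1 or WT mouse 3 (adjusted p up to 0.104 for Stat5a and 0.358 for Socs2). The call of Cish was lost without any single mouse other than HDCKO mouse 1 (adjusted p up to 0.104).

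Of 7 genes of mannose 6-phosphate sorting, the lysosomal route that Igf2r serves, 4 fell by limma and 0 rose, beside 42.6% and 17.8% of all genes. At an unadjusted p under 0.05 the counts were 5 and 0, a share close to the 66.7% of all genes that differed in either direction. M6pr, the other mannose 6-phosphate receptor, had 36.0 ± 20.2 FPKM in HDCKO and 79.9 ± 9.40 FPKM in WT (SD, n = 3 each; log2 change -1.28, limma adjusted p = 0.0325), and Gnptab, which makes the tag, fell by 1.17 on the log2 scale. Gga1 and Gga3, adaptors of the same route, fell by 0.53 and 0.65 on the log2 scale, but with median-of-ratios scaling Gga1 stood at 0.011 and Gga3 at -0.13. None of these 4 calls held with that scaling, without HDCKO mouse 2 or without any single WT mouse, and over 15 alternatives adjusted p reached 0.0958 for M6pr and 0.0917 for Gnptab. Of the 3 genes that bind IGF2 mRNA, Igf2bp2 alone was tested. It had 0.462, 0.835 and 1.68 FPKM in HDCKO mice 1, 2 and 3, against 9.55, 10.2 and 11.5 FPKM in WT mice 1, 2 and 3 (log2 change -2.95, SE 0.31, limma adjusted p = 0.0011).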

How the data were processed

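Total RNA of hind limb muscle was sequenced, with the VAHTS Universal V6 library kit according to the labels' protocols. The submitters' processing notes name FastQC 0.11.9, HISAT2 2.1.0, HTSeq 0.11.2 and STAR 2.7.11b on GRCm39, and DESeq2 1.22.2. Which aligner gave the values, and how shared reads were counted, was not given in the sources used here. Deposited values are FPKM, made by the authors from counts, per the series' design text. Depth was estimated from the smallest FPKM steps of genes with 1 annotated transcript and entered no test.

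limma 3.58.1 (trend, R 4.3.3) was fitted to log2(FPKM + 0.5) of every gene whose mean reached 0.5 FPKM, HDCKO against WT, 3 libraries each, with no covariate. Adjustment was by Benjamini and Hochberg over all genes tested, with a threshold of 0.05. Fold changes are on that log2 scale and understate the change of low genes. The fit was tested on simulated data in which 13086 of 13286 genes did not change, unlike these data, where most genes were called. There, 0.0382% of unchanged genes were called. Of genes with a true log2 change of 1 in either direction 29.6% were called, and of those with 2, 69.6%. A gene that did not pass may therefore still differ. Coordinates are from GENCODE on GRCm39 by symbol, and promoters from RefSeq on GRCm38.p6.

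The 9 genes, the lists and the tests were chosen with earlier results of these data known, and the motifs after the sequences were seen. Genes named were the members, genes of the pathway lists (for each list the 2 lowest p-values or all tested, most of the calls, and others for their role whatever their p), and for each called member the 3 genes nearest in profile with a mean of at least 1 FPKM. Of the lists, Ins1, Ins2 and Irs4 are not analysed here, and some listed genes are counted but not reported by name.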

Additional observations from a re-analysis of the deposited data

How the results depend on the processing

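The 8 tested members were refitted under 15 alternatives, which gave 120 values. Of these, 98 kept their direction and side of the threshold, counting changes of sign where neither value passed. Another 18 lost a call, 3 gained one, and 1 changed sign and gained one. The last was Igfbp6 with sample weights (log2 change 0.22), a fit whose weights did not fully converge. As deposited, 1 member rose, against 2 with median-of-ratios scaling, 2 with sample weights, 0 with no filter (limma, 1 at an unadjusted p under 0.05) and 0 to 1 when single mice were left out. Of all genes, 17.8%, 27.5%, 25.8% and 10.6% rose in that order, and 13.2% to 18.6% without single mice. The count of members that rose was 0 without each mouse other than HDCKO mouse 2. At an unadjusted p under 0.05 it was then 1, or 0 without WT mouse 2. The members that fell numbered 4 as deposited, 2 with median-of-ratios scaling, 2 with fibre and mitochondrial genes excluded from the scaling and 2 to 5 when single mice were left out. The shares of all genes that fell were 42.6%, 25%, 23.3% and 18.9% to 55.1% in that order. Pathway genes that rose numbered 9, then 17 with median-of-ratios scaling, 16 after quantile normalization, 14 with fibre and mitochondrial genes excluded from the scaling, 15 with sample weights and 6 to 10 without single mice. Beside them, 17.8%, 27.5%, 23.6%, 26.7%, 25.8% and 13.2% to 18.6% of all genes rose. Pathway genes that fell numbered 26, then 9, 11 and 10 under the first 3 of these alternatives and 9 to 32 without single mice. Beside them, 42.6%, 25%, 30.3%, 23.3% and 18.9% to 55.1% of all genes fell. Among all genes, 5658 fell as deposited, 3316 with median-of-ratios scaling, 2507 without HDCKO mouse 2 and 2799 without WT mouse 3.

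Some pathway genes reversed. With median-of-ratios scaling the log2 changes were 0.39 for Sos1, 0.032 for Pdpk1, 0.15 for Rheb, 0.081 for Rps6kb1, 0.11 for Gsk3b, 0.46 for Gnptg and 0.011 for Gga1. Gsk3b was 0.020 after quantile normalization, and Rheb and Gsk3b were 0.052 and 0.0090 with fibre and mitochondrial genes excluded from the scaling. None of these values passed. Irs2, not called as deposited, was 0.18 with sample weights and passed (limma adjusted p = 0.0419). The cause was not tested.

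With the replicate number as a replicate block, 1 member rose, 4 fell, and 9 and 20 pathway genes rose and fell. Of all genes, 15.7% rose and 38.3% fell with that block. Deviations of same-numbered libraries correlated at 0.122, 0.0666 and 0.138, and those of differently numbered libraries at -0.182 to 0.112. HDCKO mouse 2 correlated best with WT mouse 1 (0.112). Correlations this small, from so few pairs, cannot show whether same-numbered mice were paired. At the estimated depth, values near those of Igfbp2 rest on few fragments.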
